A study of Mus musculus with 4 samples.

Results

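Refined H3K36me3 peaks that the authors called in B6 testis germ cells, that lie on an autosome inside a protein-coding gene and that no KI region overlaps, numbered 15477, or 37.1% of the 41692 autosomal B6 gene peaks (Wilson 95% interval 36.7% to 37.6%). The members were chosen by the deposited peak lists themselves. A B6 refined peak was kept where it shared at least 1 bp with the span of a protein-coding gene of the GENCODE annotation of mm9 and shared no base with a refined or a broad (unrefined) region of KI. Their absence from the KI lists is therefore how they were selected and is not a result. Over all 54236 autosomal B6 refined peaks, inside and outside genes, 43.3% had no KI region, and 32.1% of the 68189 autosomal KI refined peaks had no B6 region. Both strains together had 131194 refined peaks on all chromosomes, of which 58502 were from B6.

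B6 is the inbred mouse strain C57BL/6J, whose Prdm9 allele is Prdm9Dom2. KI is B6.Cg-Prdm9<tm1.1Kpgn>/Kpgn, a strain on the same background in which the last exon of Prdm9, encoding the zinc fingers, was exchanged for that of the CAST/EiJ allele Prdm9Cst. The ChIP samples of both strains were germ cells at 14 dpp, and no other treatment was given. The controls were an input of each strain, for which the labels give 15 dpp. The reads of 2 biological replicates per strain were merged by the authors before peak calling, so each strain had 1 list, no value here has a replicate error, and no test between the strains could be made. The lists hold positions only, and the depth behind each peak is unknown. Intervals on shares and medians cover the number of peaks or matches counted and neither the animals nor the reads.

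H3K36me3, trimethylation of lysine 36 of histone H3, is laid down over the bodies of transcribed genes by SETD2, which travels with elongating RNA polymerase II. In meiotic prophase PRDM9 also deposits it, together with H3K4me3, on the nucleosomes beside its binding sites, where recombination starts. The zinc fingers of PRDM9 read the DNA sequence, so the alleles of B6 and KI direct it to different sites. A refined peak inside a gene can thus lie on either form of the mark, and the lists do not tell them apart.

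To see whether the gene peaks carry sequence that goes with the Prdm9 allele, 10-mers were listed from peaks that are not members. The 8023 B6 peaks outside genes with no KI region were compared with the 12240 KI peaks outside genes with no B6 region, in windows of 400 bp around the peak midpoint and on both strands. The 20 10-mers whose log odds of being in a B6 window had the highest lower limit were kept, and they were then looked for in the gene peaks. This list was added after values of the data had been seen. The fourth of the list, AGCCACTACC, does not hold the letters AGTAGC on either strand. The other 4 of the first 5, shown because they share these letters, were as follows.
first of the list: GAAGCTACTA
second of the list: CAGTAGCTTC
the third, found in most members of all 20: AGAAGCTACT
the fifth: GACAGTAGCA
The letters AGTAGC, on either strand, stood in 11 of the 20 listed 10-mers. On their own these 6 letters are common and were in 16.1% of the members' windows, in 13.9% of the windows of KI gene peaks with no B6 region and in 12.9% of 31500 windows set every 50 kb along protein-coding genes.

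The 6 intronic members with most matches to this list are printed as stretches of 120 bases of the plus strand of mm9, with the matching 10-mers in capitals. Overlapping matches run together into longer capitals. Over all members 18 held at least 3 matches, so not all of these are printed. The stretch of Cpa6 shows 4 of its 5 matches.
Cpa6, chr1:10606648-10606767: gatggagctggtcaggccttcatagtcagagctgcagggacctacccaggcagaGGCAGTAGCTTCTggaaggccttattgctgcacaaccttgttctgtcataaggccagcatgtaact
4931429P17Rik, chr13:48106118-48106237: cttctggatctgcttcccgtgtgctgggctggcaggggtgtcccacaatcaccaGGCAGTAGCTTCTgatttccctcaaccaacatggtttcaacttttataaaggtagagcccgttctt
Fhit, chr14:11053772-11053891: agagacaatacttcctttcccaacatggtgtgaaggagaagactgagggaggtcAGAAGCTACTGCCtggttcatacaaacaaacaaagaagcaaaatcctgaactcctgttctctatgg
Slco1a5, chr6:142254649-142254768: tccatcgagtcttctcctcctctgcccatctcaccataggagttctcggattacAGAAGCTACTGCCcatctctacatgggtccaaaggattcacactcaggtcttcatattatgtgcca
Ephb1, chr9:102063258-102063377: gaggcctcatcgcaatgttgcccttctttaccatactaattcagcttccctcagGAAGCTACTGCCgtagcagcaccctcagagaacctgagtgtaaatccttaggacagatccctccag
Rbpj, chr5:53960887-53961006: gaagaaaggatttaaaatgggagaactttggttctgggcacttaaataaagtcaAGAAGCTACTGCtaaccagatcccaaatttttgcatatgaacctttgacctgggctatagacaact
The 12 letters AGAAGCTACTGC, on one strand or the other, were in 5 of these 6 stretches, which were chosen for their matches. Over all members they were in 10 of 15477 windows, against 14 of 8023 B6 windows outside genes, 2 of 9652 windows of KI gene peaks with no B6 region and 2 of the 31500 windows along genes. The windows searched were mostly wider than the peaks, and the stretches run past the peak ends. The capitals lay inside the peak in 4931429P17Rik, Fhit, Slco1a5 and Rbpj and just beyond its end in Cpa6 and Ephb1. The peaks of Cpa6, 4931429P17Rik and Fhit were 310, 249 and 267 bp wide. Those of Slco1a5, Ephb1 and Rbpj were 224, 171 and 280 bp wide. The broad regions that held the 6 peaks were 2500 to 3500 bp wide. In 5 of the 6 host genes B6 broad regions covered between 1.33% of the span (Fhit) and 5.15% (4931429P17Rik), and in Rbpj, which encodes the DNA-binding effector of Notch signalling, they covered 63.6%. The nearest KI region was between 28.6 kb away, for the peak in Slco1a5, and 58.8 kb away, for the peak in 4931429P17Rik.

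Members held the 10-mers listed outside genes more often than KI peaks of the same kind, and their share fell with the broad coverage of the host gene. At least 1 listed 10-mer was in 481 of the 15477 member windows, a share of 3.11% (2.85% to 3.39%). In KI gene peaks with no B6 region it was 1.43% (1.21% to 1.69%), in windows 1.5 kb to either side of the members 1.34% (1.22% to 1.47%), and in windows set along genes 1.41% (1.29% to 1.55%). B6 gene peaks that lay on KI broad regions only held it in 2.35% of windows (2.14% to 2.58%) and those that overlapped a KI refined peak in 1.84% (1.56% to 2.16%). In the B6 peaks outside genes on which the list was chosen the share was 8.16%. The corresponding list for KI, taken from KI peaks outside genes, was found in 1.25% of members (1.08% to 1.43%) and in 1.29% of windows 1.5 kb beside them, and in 290 of the 9652 KI gene peaks with no B6 region (2.68% to 3.36%).

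Host genes differed widely in how much of their span B6 broad regions covered. The host of a member is the protein-coding gene that shares most bases with it. Of the 15477 members, 2957 (19.1%) lay in genes covered under 10% in B6 and 2831 (18.3%) in genes covered 75% or more. In the genes covered under 10%, 6.49% of members held a listed 10-mer (5.66% to 7.44%). The share was 3.39% (2.75% to 4.17%) at 10 to 25% coverage, 2.32% (1.88% to 2.86%) at 25 to 50% and 1.96% (1.55% to 2.47%) at 50 to 75%. In genes covered 75% or more it was 1.77% (1.34% to 2.32%). The windows 1.5 kb beside the members stayed between 1.19% and 1.50% in the 5 classes, and KI gene peaks with no B6 region between 0.779% and 1.83%. Divided by KI coverage of the host gene in place of B6 coverage, the share was 4.81% under 10% and 1.55% at 75% or more. B6 gene peaks on KI broad regions only showed no steady fall over the 5 classes. Their share was 2.80% (1.57% to 4.94%) under 10% B6 coverage, 1.87% at 10 to 25% and 1.62% (1.16% to 2.25%) at 25 to 50%. It was 2.01% at 50 to 75% and 2.61% (2.33% to 2.92%) at 75% or more, where it was above the 1.77% of members.

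**Figure D1:**
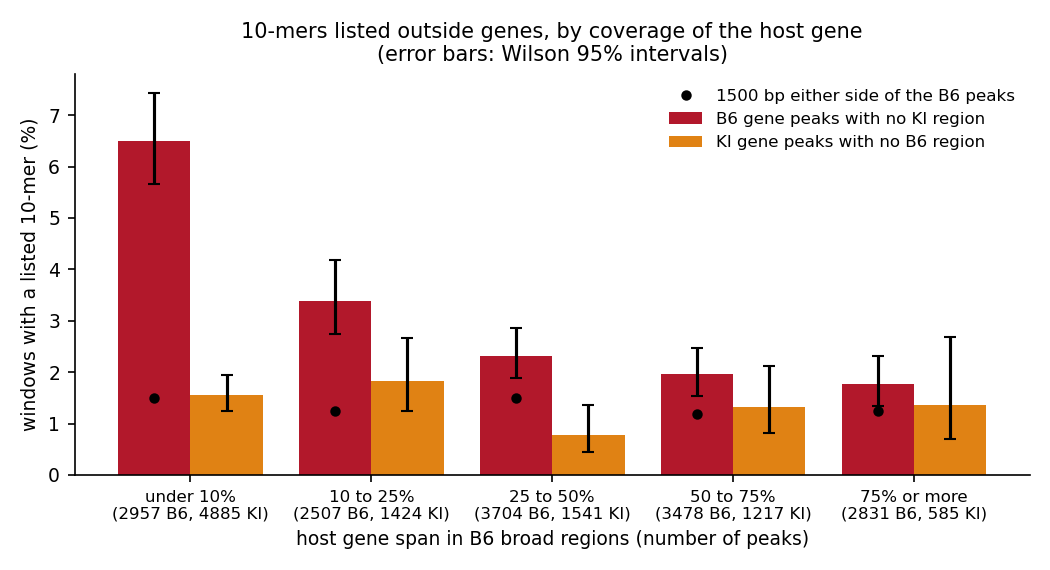
Share of 400-bp windows with at least 1 of the 20 10-mers listed outside genes (y, percent) by the share of the host gene in B6 broad regions (x, with the number of peaks of each strain), for B6 gene peaks with no KI region and KI gene peaks with no B6 region. Error bars are Wilson 95% intervals and dots are windows 1.5 kb to either side of the B6 peaks. The B6 share falls from 6.49% to 1.77%, and the dots stay between 1.19% and 1.50%.

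The matches in members were more frequent beside the peak midpoint than at it, most clearly in genes covered under 25% in B6. Of 617 matches, 335 (54.3%, 50.3% to 58.2%) lay 100 to 175 bp from the midpoint, a stretch that makes up 75 of the 200 bp on each side. In members of genes covered under 25% in B6 the share was 60.6% (55.5% to 65.5%), and in those of genes covered 25% or more it was 45.0% (38.9% to 51.2%). In KI gene peaks with no B6 region it was 34.8% (27.9% to 42.3%), and in the B6 peaks outside genes on which the list was chosen it was 66.2%. In members of the less covered genes there were 15.6 matches per 1000 windows at 125 to 150 bp against 3.11 at 25 to 50 bp, and in those of the more covered genes 3.60 against 2.10. The matches also tended to one side. Matches were counted where they lay at least 25 bp from the midpoint of the peak and that midpoint at least 25 bp from the centre of the broad region. Of 541 such matches in members, 364 (67.3%, 63.2% to 71.1%) lay on the side that faced the centre of the broad region. The share was 74.3% (69.3% to 78.7%) in genes covered under 25% and 52.2% (43.8% to 60.5%) in KI gene peaks with no B6 region.

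**Figure D2:**
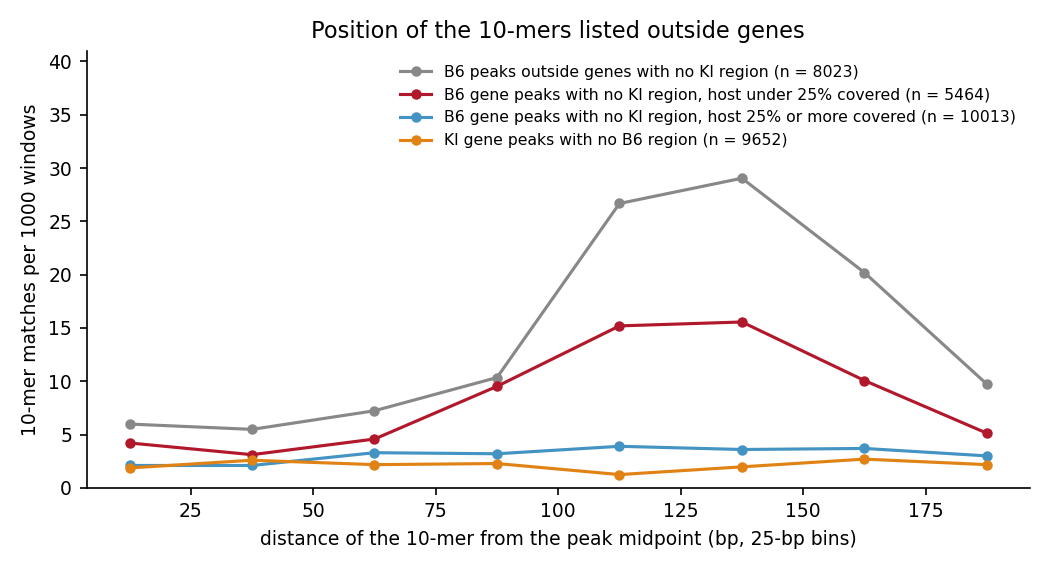
Matches to the 20 10-mers listed outside genes per 1000 windows (y) by distance from the peak midpoint in bins of 25 bp (x), for members in host genes covered under 25% and 25% or more in B6, for KI gene peaks with no B6 region and for the B6 peaks on which the list was chosen. Matches in members of the less covered genes are most frequent at 125 to 150 bp, with 15.6 per 1000 windows, and those in KI peaks show no such maximum.

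Peak width, position and distance to KI also divided the members. Narrow members held a listed 10-mer more often than wide ones, with 4.07% at up to 250 bp (3.47% to 4.77%), 3.57% above that and up to 350 bp and 2.18% above 350 bp (1.85% to 2.57%). The window was 400 bp for all widths, so it took in less of the sequence around the ends of wide members. The part of this in the lower share was not tested. Members 10 kb or more from any KI region had a share of 4.84% (4.25% to 5.51%) and the others 2.41% (2.14% to 2.71%). Within 500 bp of a KI region it was 1.11% (0.712% to 1.73%), which overlaps the interval of the windows set along genes. It was 3.26% in members within introns only (2.98% to 3.57%) and 1.87% in those touching an exon (1.33% to 2.63%). These divisions overlap with that by coverage of the host gene, and their separate parts were not tested.

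A second list was taken from the members themselves, against KI gene peaks with no B6 region, on odd-numbered autosomes, and counted on even-numbered autosomes. Of its 20 10-mers, 16 were made of at least 70% A and T, against 1 of the 20 listed outside genes, and the 2 lists had 1 10-mer in common. The first was CTTTGAAATA and the shared one CAGATGCTAC. On even-numbered autosomes 407 of 7647 members (5.32%, 4.84% to 5.85%) held such a 10-mer, against 3.13% (2.66% to 3.68%) of KI gene peaks with no B6 region, 4.26% (3.85% to 4.72%) of B6 gene peaks on KI broad regions only and 5.15% (4.50% to 5.90%) of B6 peaks outside genes with no KI region. The windows 1.5 kb before and after the members held it in 4.11% and 3.69%, and those before and after the KI gene peaks in 3.60% and 4.69% (4.11% to 5.35%), which overlaps the interval of the members. Base composition moved with this list, since G and C made up 42.2% of the bases in the mean member window and 44.4% in that of the KI gene peaks, with SDs across windows of 5.95 and 6.21 points. Its part in the difference was not tested. The 6 intronic members with most matches to this list are printed over 80 bases with the matches in capitals, to show the letters it picked. Mef2c held 3 matches and the others 2 each. Over all members 39 held at least 2, so not all of these are printed. Except in Tmem132c, the stretches show only part of the matches. As above, stretches come from the 400-bp window, and that of Tmem132c lies wholly beside its peak of 246 bp.
Mef2c, chr13:83795393-83795472: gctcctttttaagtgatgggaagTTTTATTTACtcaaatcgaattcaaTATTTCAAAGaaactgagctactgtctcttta
Kcnq5, chr1:21611869-21611948: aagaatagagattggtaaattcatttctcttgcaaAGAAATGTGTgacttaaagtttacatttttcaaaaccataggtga
Tmem132c, chr5:127885567-127885646: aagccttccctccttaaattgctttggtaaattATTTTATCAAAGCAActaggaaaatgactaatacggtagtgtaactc
Gm606, chr16:26961023-26961102: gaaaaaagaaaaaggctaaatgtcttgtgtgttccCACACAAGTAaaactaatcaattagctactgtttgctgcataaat
Ctnna3, chr10:63110797-63110876: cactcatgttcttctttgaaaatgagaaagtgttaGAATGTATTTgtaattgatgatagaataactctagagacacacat
Wwox, chr8:117065287-117065366: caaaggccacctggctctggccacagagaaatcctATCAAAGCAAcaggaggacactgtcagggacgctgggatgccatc

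Members were narrow peaks in short broad regions. Their median width was 310 bp (interval of the median 308 to 313, quartiles 254 and 465), close to the 306 bp of B6 gene peaks on KI broad regions only and below the 366 bp of those that overlapped a KI refined peak. Each refined peak lies in 1 broad region, and the widths of 54456 of the 54458 B6 broad regions were multiples of 500 bp, from 2000 bp upward. The median broad region around a member was 2500 bp, against 7500 bp around B6 gene peaks on KI broad regions only. It was also 2500 bp around KI gene peaks with no B6 region, which were chosen in the same way. Peaks on KI broad regions are kept out of the members by the rule, so this contrast is tied to the choice of the members. Regions under 5 kb held 91.7% of members (91.2% to 92.1%), 36.7% of B6 gene peaks on KI broad regions only and 95.9% of KI gene peaks with no B6 region. Of the 14672 broad regions that held members, 13887 held 1, and none held more than 3.

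**Figure D3:**
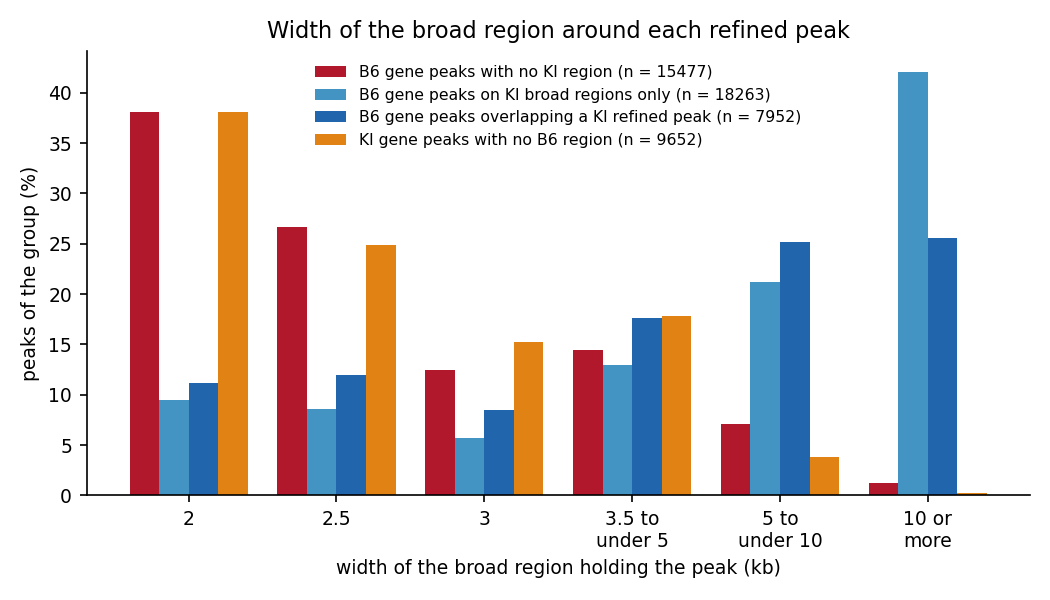
Share of the peaks of each group (y, percent) by width of the broad region that holds the peak (x, kb), for 4 groups of gene peaks with their numbers. Regions of 10 kb or more hold 1.21% of the B6 gene peaks with no KI region and 42.1% of those on KI broad regions only.

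The 5 widest members lay in Utrn, Bai3, Nrarp, Dnm3 and Sox6. The widest, of 3277 bp at chr10:12165552-12168828, covered coding exon sequence of Utrn, which encodes utrophin, the relative of dystrophin. That in Bai3, an adhesion G protein-coupled receptor gene, was intronic and 2797 bp wide (chr1:25575023-25577819). The peak of 2792 bp in Nrarp, a regulator of Notch signalling, touched an exon but no coding sequence (chr2:25038209-25041000), and KI broad regions covered 0% of that gene. The peak in Dnm3, a dynamin gene, was 2413 bp wide and touched coding sequence (chr1:164283018-164285430). That in Sox6, a gene of a transcription factor with an HMG box, was intronic and 2340 bp wide (chr7:122787151-122789490), and a KI region lay 510 bp away.

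The distance to KI varied from none to over 500 kb. The median gap between a member and the nearest KI region was 3830 bp (3713 to 3961), with quartiles at 1297 and 12150 bp, and 4461 members (28.8%) lay 10 kb or more away. KI gene peaks with no B6 region had a median gap of 8106 bp to the nearest B6 region. Just inside the rule, 8 members had no base between them and a KI region, such as those in Dnahc7b, Spag16 and Fbxo11, and 209 lay within 50 bp. Just outside it, 236 of the 26215 B6 gene peaks that met a KI region shared 50 bp or less with it, and 6 shared 1 bp. The broad region around a member overlapped a KI broad region in 3083 cases (19.9%), although the refined peak itself did not. The farthest 3 members all lay in Lrrc4c, a gene of a synaptic adhesion protein, at 509, 473 and 424 kb from a KI region, and B6 and KI broad regions covered 0.876% and 0.647% of that gene.

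Within genes, members lay mostly in introns, and few lay in the first kb. They were in introns only in 13765 cases (88.9%, 88.4% to 89.4%), 11.1% touched an exon and 7.46% a coding exon. Exons make up 7.79% of the bases of autosomal protein-coding genes, and a peak touches an exon by any of its bases. The share touching an exon was 11.6% in KI gene peaks with no B6 region (10.9% to 12.2%) and 25.9% in B6 gene peaks that overlapped a KI refined peak, and 4566 of the 18263 B6 gene peaks on KI broad regions only touched one. A total of 779 members (5.03%, 4.70% to 5.39%) had their midpoint within 5 kb downstream of the 5′ end of the host gene, 7 midpoints just upstream of it included, against 9.39% of B6 gene peaks on KI broad regions only and 7.57% of KI gene peaks with no B6 region. Across the 9328 autosomal protein-coding genes of 20 kb or more, there were 12 member midpoints in the first kb, 117 per kb from 1 to 5 kb and 142 per kb from 5 to 20 kb. The B6 gene peaks on KI broad regions only gave 12, 176 and 235 per kb in the same stretches. When each gene of at least 20 kb was divided into 10 equal parts, the part at the 5′ end held 8.71% of members and the others between 9.52% and 10.7%. The part at the 5′ end held 8.97% of KI gene peaks with no B6 region. The part at the 3′ end held 10.4% of members and 12.7% of B6 gene peaks on KI broad regions only.

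Members were spread over 4108 host genes, 19.2% of the 21418 autosomal protein-coding genes. A single member was found in 1791 of them, while 362 genes held 10 or more and together held 41.5% of the members. Long genes held most. The median member lay in a gene of 172 kb, against 80.8 kb for B6 gene peaks on KI broad regions only, and 71.0% of the 2281 genes of at least 100 kb were hosts, against 5.13% of the 12090 genes under 20 kb. A member overlapped more than 1 protein-coding gene in 290 cases (1.87%). Per Mb of gene span, chromosomes ranged from 13.7 members on chromosome 11 to 20.1 on chromosome 13. Members were 29.6% of the B6 gene peaks of chromosome 11 and 42.3% of those of chromosome 10.

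**Figure D4:**
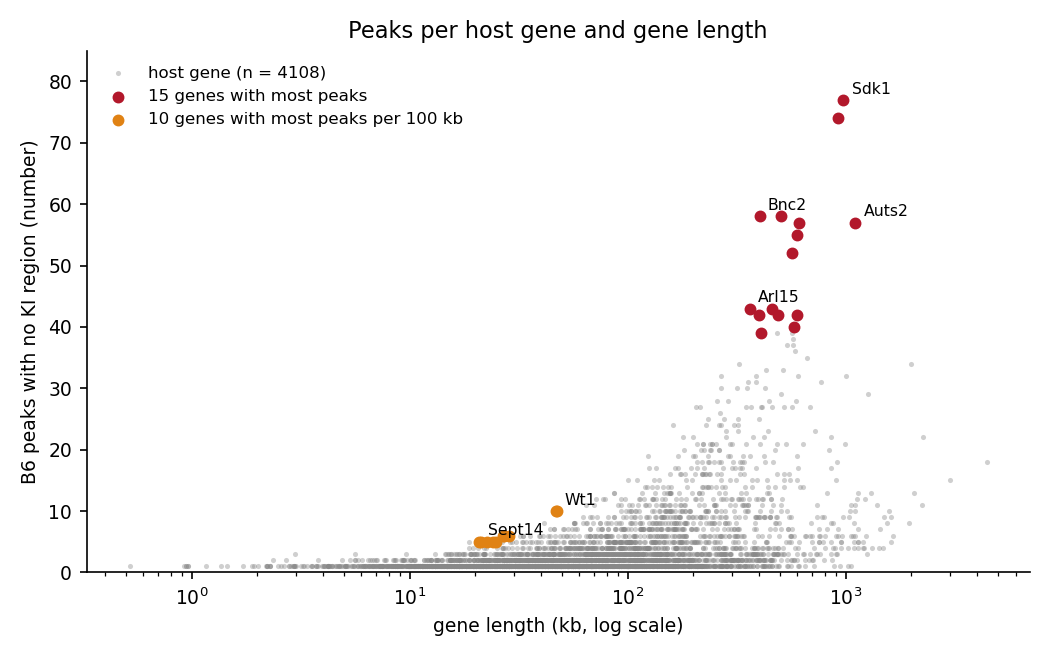
Number of B6 peaks with no KI region (y) in each of 4108 host genes by gene length (x, kb, log scale), with the 15 genes with most peaks and the 10 genes of at least 20 kb with most peaks per 100 kb marked. Sdk1, of 974 kb, holds 77, and the densest genes, of 20.9 to 47.4 kb, hold 5 to 10.

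The 15 genes with most members were between 363 and 1106 kb long and held 39 to 77 each. Sdk1 (chr5:141717444-142691540), a gene of an immunoglobulin-type cell adhesion protein, held 77 of its 160 B6 refined peaks, and B6 broad regions covered 57.1% of it against 38.9% for KI. Nckap5 held 74 members, and its coverage was 31.5% in B6 and 15.6% in KI. Bnc2, a zinc finger gene, and Rad51l1, a gene of homologous recombination, held 58 each. Both were covered more in B6, with 53.5% against 17.0% in Bnc2 and 60.7% against 29.4% in Rad51l1.

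Magi1, a scaffold gene of cell junctions, and Auts2 held 57 each. Auts2 was the most covered of the 15 in either strain, with 87.9% in B6 and 65.2% in KI, and KI had 216 refined peaks in it against 130 in B6. Lpp, a focal adhesion gene, held 55, and Smyd3, a SET domain methyltransferase gene, held 52. Arl15 and Reln, which encodes the secreted protein reelin, held 43 each, while Dock4, Utrn and Hpse2 held 42. Cadps2, a gene of vesicle exocytosis, held 40. The last of the 15, Zfp385b, held 39, with the widest gap of the 15 in coverage, 87.5% in B6 against 47.1% in KI, and 1 KI peak with no B6 region. In all 15 genes coverage was higher in B6, by 11.2 points in Hpse2 up to 40.5 points in Zfp385b. They also held between 1 and 26 KI peaks with no B6 region, so peaks called in a single strain were found in both directions within each of these genes. Since a host with many members has B6 regions that KI lacks, the direction of the coverage follows from the choice of the members.

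Per 100 kb the densest of the 908 genes of at least 20 kb with 5 or more members were shorter genes. Sept14, a septin gene, led with 5 members in 20.9 kb, or 24.0 per 100 kb, and was covered 73.0% in B6 and 22.6% in KI. Hr, which encodes the hairless corepressor, held 5 and was covered 28.1% in B6 and 0% in KI. B4galt4, a galactosyltransferase gene, and Sorbs3, the vinexin gene, held 6 each with 84.6% against 32.3% and 82.8% against 31.3%. Cyp4f13, a cytochrome P450 gene, held 5 (39.6% against 0%). Wt1, the Wilms tumour transcription factor gene expressed in Sertoli cells, held 10 members in 47.1 kb, which were all of its 10 B6 refined peaks, and was covered 71.7% in B6 and 8.49% in KI. Cflar, a caspase-8 inhibitor gene, held 10 (53.8% against 8.44%). Reep5, an endoplasmic reticulum shaping gene, held 6 (61.2% against 0%), Ctso, the cathepsin O gene, held 5 (56.6% against 0%) and Slc43a1, an amino acid transporter gene, held 5 (49.5% against 16.2%). In 4 of the 10, Hr, Cyp4f13, Reep5 and Ctso, KI had no broad region and no refined peak.

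These dense genes belong to a small group of genes with much more B6 than KI coverage. Of all 21418 autosomal protein-coding genes, 3.24% (695) were covered at least 25 points more in B6 and 2.11% (452) at least 25 points more in KI. The 695 held 2679 members, 17.3% of all, at 95.1 per Mb of gene, against 15.9 per Mb over all genes. This density follows from the choice of the members, since the same lists give both. The members in the 695 held a 10-mer listed outside genes in 1.90% of windows (1.45% to 2.49%), and the other members in 3.36% (3.06% to 3.69%).

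At the other end, the 4905 genes covered at least 90% in both strains held 138 members in 110 genes, or 0.749 per Mb. The rule leaves little of such genes free of KI regions. The 9080 genes covered under 10% in both strains held 2821 members, or 6.63 per Mb. Members were thus found both in genes that neither strain marked broadly and in genes that B6 marked more broadly than KI, and those in genes covered at least 50% by KI broad regions made up 21.7% (21.1% to 22.4%).

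**Figure D5:**
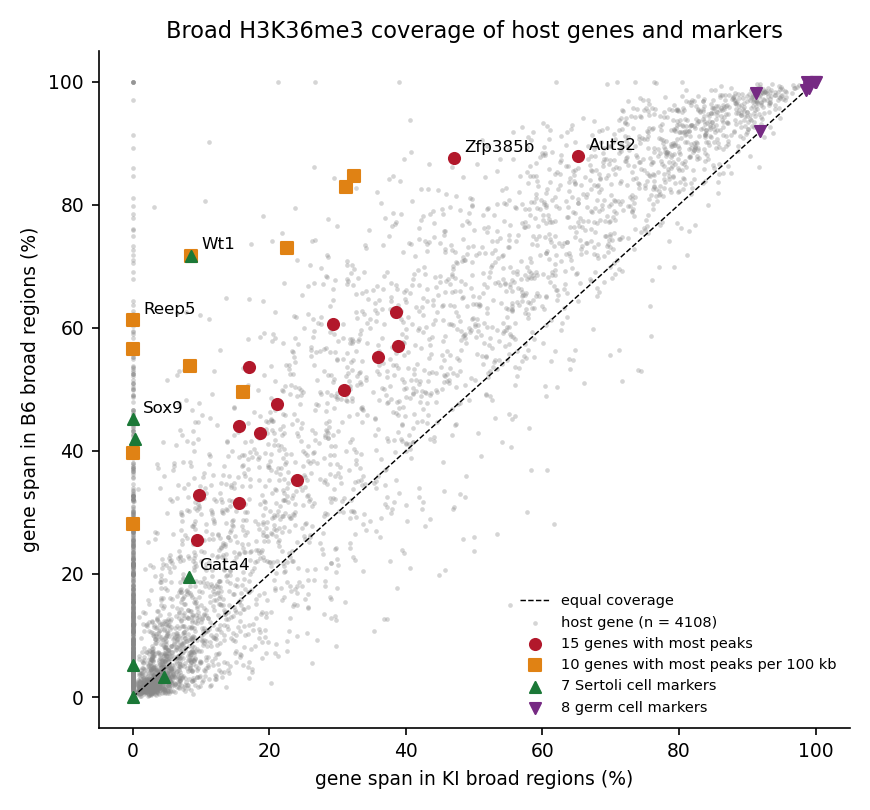
Share of each gene in B6 broad regions (y, percent) and in KI broad regions (x, percent) for the 4108 host genes, with the 15 genes with most peaks, the 10 densest, 7 Sertoli cell markers and 8 germ cell markers. The dashed line marks equal coverage. Wt1 and Reep5 lie far above it, and the germ cell markers lie at the upper right with over 91% in both strains.

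Marker genes of the cells in the testis were read beside these results. All 8 markers of germ cells in meiotic prophase, Sycp3, Sycp1, Stag3, Dmc1, Hormad1, Ddx4, Mael and Tdrd1, were covered between 91.9% and 100% in B6 and between 91.3% and 100% in KI, and together they held 1 member, in Tdrd1. The labelled cell type is thus marked in both lists. Of 7 Sertoli cell markers, 5 were hosts, against 19.2% of all autosomal protein-coding genes. They held 19 members, 10 of them in Wt1. Over the 7 genes this was 52.3 per Mb, against 15.9 per Mb over all genes. Of the 7, 5 were covered more in B6, 3 of them by at least 25 points. Of all autosomal protein-coding genes 30.6% were covered more in B6 and 3.24% by at least 25 points. Members are B6 peaks without a KI region, and the same lists give the coverage. The number of members and the higher B6 coverage of a host are therefore tied by the choice of the members and are not separate results. Wt1 is described above. Sox9, a transcription factor gene of Sertoli cell identity, was covered 45.2% in B6 and 0% in KI and held 1 member. Amh, the gene of anti-Müllerian hormone, was covered 42.0% against 0.333% and held none. It spans 2.40 kb and had no refined peak in either list, so its coverage turns on few steps of 500 bp. Gata4 was covered 19.6% against 8.25% and held 4 members, Cldn11 5.19% against 0% with 1 member, and Fshr, the follicle-stimulating hormone receptor gene, 3.24% against 4.50% with 3 members. Dhh was at 0% in both lists. Over the summed span of the 7 genes, coverage was 16.3% in B6 and 5.43% in KI. Of 6 Leydig cell markers, Star was covered fully in both strains, Lhcgr 4.96% in B6 and 0% in KI with 1 member, Cyp11a1 0% and 1.51%, and Cyp17a1, Hsd3b1 and Insl3 were at 0% in both. The part of Sertoli cells in the members was not tested. More cells of a type and more of the mark per cell cannot be told apart in such lists.

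Of 33 names of genes of meiotic recombination and the chromosome axis, 30 matched an autosomal protein-coding gene, with a median coverage of 96.7% in B6 and 96.0% in KI. Hosts were 2 of the 30, against 19.2% of all genes, with 14 members, or 9.80 per Mb. Genes with such high coverage were seldom hosts, as 110 of the 4905 genes covered at least 90% in both strains held a member. Mei4, needed for the formation of double-strand breaks, held 11 members over 342 kb and was covered 42.9% in B6 and 24.1% in KI. Mnd1, a partner of DMC1-mediated strand exchange, held 3 and was covered 39.3% and 29.5%. These 2 were the least covered of the 30 in either strain. Prdm9 itself (chr17:15680043-15701318) held no member, with 96.4% and 94.0%. None of the 30 differed by 25 points or more in either direction.

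Of 20 names of enzymes that write or remove methylation at H3K36 and H3K4, 19 matched and 5 of the 19 were hosts, against 19.2% of all genes. The 5 hosts held 61 members in all, of which Smyd3 held 52. Over the 19 genes this was 27.8 per Mb, against 15.9 per Mb over all genes. Mll3, an H3K4 methyltransferase gene, held 4, Kdm2b, an H3K36 demethylase gene, held 3, and Kdm4b and Kdm4c held 1 each. Setd2 held none and was covered 99.5% in both strains. The median coverage of the 19 was 97.3% in B6 and 96.5% in KI. Of 41 gene records with proteasome-type symbols, which include Psmc3ip, a recombination gene, 2 held a member each. Hosts were 19.2% of all genes but 5.13% of genes under 20 kb, and the median length of the 41 records was 11.8 kb. The 2 records with a member were Psma6 and Psma8, the latter a testis-specific proteasome subunit gene.

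A list of 30 names of long genes, only part of which are synaptic or adhesion genes, matched 34 gene records. Of these records, 31 were hosts, against 19.2% of all genes and 71.0% of genes of at least 100 kb. The median length of the 34 was 1130 kb. They held 325 members, or 8.40 per Mb, below the 15.9 per Mb of all genes. The median coverage of the 34 was 1.57% in B6 and 2.32% in KI. Auts2 alone held 57 of the members, followed by Macrod2 with 34, Ptprd with 22 and the longer of 2 records of Park2 with 21. In Cntnap2, a cell adhesion gene of 2241 kb, all 11 B6 refined peaks were members and all 14 KI refined peaks had no B6 region. In Lrp1b, a gene of the LDL receptor family, the same held for 13 B6 and 12 KI peaks. Dpp10 had 1 member and 9 KI peaks with no B6 region, and Lsamp 1 and 5. None of the 34 records differed by 25 points or more in coverage, and 9 were covered more in B6, near the 30.6% of all genes.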

How the data were processed

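H3K36me3 ChIP-seq lists of B6 and KI germ cells were used as deposited, with start and end positions on mm9 as the only values. The labels write the target of the antibody as H3K36me6, and H3K36me3 was taken from the study's methods. The authors aligned unique reads with BWA (version 1.2.3 per the labels), merged replicates and called broad regions and the refined peaks within them with ZINBA against the input of each strain. The deposited columns hold no counts or scores, so the depth and strength at each peak are unknown. By the paper's read totals, more reads were aligned for KI than for B6. The part of this in the differences between the lists was not tested. Overlaps were computed with numpy 2.4.6 and pandas 2.3.3, and the number of members was checked against bedtools 2.31.1. The code was tested on simulated data. Coverage is the share of a gene span in broad regions. The mm9 chromosomes matched the reference sequence in length, and no repeat annotation was used. Simple repeats and 10-mers in under 10 windows were left out of the lists. Intervals are Wilson 95% intervals (scipy 1.17.1) and, for medians, binomial intervals of order statistics.

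The genes named are the 15 with most members, the 10 of at least 20 kb with most members per 100 kb among those with 5 or more, and list genes that held members, with the markers. The regions named are the 5 widest, the nearest and farthest from KI, and the 6 intronic ones with most listed 10-mers, chromosome 18 left out. Cntnap2, Lrp1b, Dpp10, Lsamp, Prdm9 and Setd2 were picked out among list genes after their values were seen, and another such gene is not reported here. The members and lists were chosen with earlier results of these data known.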

Additional observations from a re-analysis of the deposited data

How the results depend on the processing

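No paired analysis was possible because each strain has 1 pooled list, and for the same reason no replicate could be left out. Of 34 alternative values, 15 stayed within the limits used (1.5 times for a count, the interval of the main value for a share or median) and 19 moved. With KI refined peaks only as the other list, the members numbered 33740 and their share of B6 gene peaks rose from 37.1% to 80.9%. The share was 33.0% where KI regions within 500 bp counted as overlap and 36.3% where B6 peaks within 1000 bp were merged, which also gave a median width of 324 bp. Introns only held 89.9% with exons of protein_coding transcripts. The share within 5 kb of a 5′ end was 11.2% from the start of any transcript and 3.21% in hosts of at least 20 kb. The share in hosts covered by KI was 44.9% at a limit of 25% and 5.83% at 75%. The median gap to a KI refined peak was 5304 bp. For the 10-mers listed from members, windows of 200 bp gave 4.47% and 8-mers 23.7%, with KI gene peaks at 3.37% and 18.7%. For the list from outside genes, chosen like its alternatives after seeing the data, windows of 200 bp gave 1.80% of members and 2.30% (1.82% to 2.90%) in hosts covered under 10%, against 1.66% (1.25% to 2.20%) in those covered 75% or more and 1.44% in KI gene peaks. The intervals of both classes of hosts overlap there, and the ratio of members to KI gene peaks was 1.25 against 2.17 in the main setting. Such windows leave out the bases over 100 bp from the midpoint. With 8-mers the values were 16.0% of members, 23.0% in hosts covered under 10% and 14.0% in those covered 75% or more, against 11.3% in KI gene peaks. Listing on odd-numbered and counting on even-numbered autosomes gave 3.47%. What the lists cannot show is the number of reads behind a peak, so a site that KI marked below its calling limit and an unmarked site cannot be told apart.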
